A study of Mus musculus with 10 samples.

Results

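The Krüppel-like factors (KLFs) described here were 9 genes, Klf2, Klf3, Klf4, Klf5, Klf6, Klf9, Klf10, Klf13 and Klf16, chosen by gene symbol from the 31053 genes of the count tables. All 9 passed the filter on low counts and were among the 11215 genes tested. RNA came from E14 cells, a line of mouse embryonic stem (ES) cells, and the cells of every group carried a stably integrated Esrrb construct that doxycycline (DOX) switches on. Cells of the first group were held for 96 h in N2B27 medium with DOX after 2iL had been taken away (96 h DOX, 3 libraries). Those of the second group had the same 96 h in N2B27 without DOX (96 h no DOX, 3 libraries). The third group was the starting culture in N2B27 with 2iL, that is the GSK3 inhibitor CHIR99021 at 3 µM, the MEK inhibitor PD0325901 at 1 µM and the cytokine LIF (2iL, 4 libraries). Libraries were named by experiment (exp1 or exp2) and a number within it, and the 96 h groups held 1 library each from experiment 2. The labels do not say whether the transfected cells were 1 clone or a pool. Esrrb encodes an orphan nuclear receptor that helps to hold naive pluripotency, and the groups ask what leaving 2iL did to the KLF genes and how that differed when the construct was induced.

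KLFs are transcription factors that bind GC-rich and CACCC sequences through zinc fingers at their carboxyl end. In mouse ES cells, Klf2, Klf4 and Klf5 are known for overlapping roles in self-renewal. Klf4 is a target of LIF and STAT3 signalling, whereas Klf2 is sustained by MEK inhibition. Klf3 acts mainly as a repressor through CtBP proteins, and Klf9, Klf10, Klf13 and Klf16 recruit Sin3 corepressors.

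On GRCm38 with the GENCODE vM21 annotation, Klf2 (ENSMUSG00000055148) lay at chr8:72319033-72321656 on the plus strand and Klf4 (ENSMUSG00000003032) at chr4:55527143-55532466 on the minus strand. Klf5 (ENSMUSG00000005148) lay at chr14:99298691-99315036 and Klf6 (ENSMUSG00000000078) at chr13:5861482-5870394, both on the plus strand. Klf3 (ENSMUSG00000029178) lay at chr5:64803388-64832901 and Klf9 (ENSMUSG00000033863) at chr19:23141226-23168134 on the plus strand. Klf10 (ENSMUSG00000037465) lay at chr15:38291463-38300706, Klf13 (ENSMUSG00000052040) at chr7:63886351-63938915 and Klf16 (ENSMUSG00000035397) at chr10:80567124-80577321 on the minus strand. Each of the 9 was a protein-coding gene on a chromosome of its own. Klf3 and Klf13 overlap annotated genes on the opposite strand, and no source used here gives the strand setting of the counting, so their reads cannot be told apart from antisense reads there. Promoter windows from RefSeq (GRCm38.p6) matched 6 of the 9 genes, and each window ran from 250 to 51 bases before the start that the RefSeq table uses. That start is not always the GENCODE start given above, and the Klf3 window runs past the GENCODE start into the gene. Below are those of Klf2, which fell without 2iL whether or not DOX was given, of Klf4, which rose with DOX, of Klf6, which rose without 2iL, and of Klf3, which held the most matches to the family's own box. They are written 5′ to 3′ on the gene's strand, and the capitals mark CACCC (or its complement GGGTG) and the GC box GGGCGG (or CCGCCC). The windows are chr8:72318812-72319011 (Klf2, plus), chr4:55532526-55532725 (Klf4, minus), chr13:5861239-5861438 (Klf6, plus) and chr5:64803271-64803470 (Klf3, plus).
Klf2: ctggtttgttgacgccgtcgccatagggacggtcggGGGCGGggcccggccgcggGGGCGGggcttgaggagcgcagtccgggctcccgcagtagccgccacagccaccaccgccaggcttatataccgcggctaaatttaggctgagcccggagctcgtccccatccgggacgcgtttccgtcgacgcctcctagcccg
Klf4: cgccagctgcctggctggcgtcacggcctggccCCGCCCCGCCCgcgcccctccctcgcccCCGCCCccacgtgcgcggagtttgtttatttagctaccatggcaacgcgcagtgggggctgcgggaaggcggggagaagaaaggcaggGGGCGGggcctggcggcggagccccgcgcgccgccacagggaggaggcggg
Klf6: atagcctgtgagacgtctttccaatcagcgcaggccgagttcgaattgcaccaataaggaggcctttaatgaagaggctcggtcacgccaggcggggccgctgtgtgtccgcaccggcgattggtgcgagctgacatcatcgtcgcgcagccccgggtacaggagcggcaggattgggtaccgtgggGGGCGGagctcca
Klf3: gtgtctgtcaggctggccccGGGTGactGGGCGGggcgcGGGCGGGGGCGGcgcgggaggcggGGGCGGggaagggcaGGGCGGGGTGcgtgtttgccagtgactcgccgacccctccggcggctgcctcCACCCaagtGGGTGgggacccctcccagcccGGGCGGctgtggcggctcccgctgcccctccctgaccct
The GC box matched 2 times in the Klf2 window, 4 times in that of Klf4, 1 time in that of Klf6 and 6 times in that of Klf3, counted on both strands with overlaps allowed. CACCC matched 4 times in the Klf3 window, where 1 match shared bases with a GC box, and 0 times in the other windows shown. Of 32851 windows of the same length, 24.6% held a GC box and 44.4% held CACCC. The Esrrb motif AAGGTCA and the STAT motif TTCNNNGAA each matched 0 times in all 6 windows, against 3.36% and 5.76% of the 32851 windows. These counts describe letters in a 200-base window and say nothing of binding.

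Libraries held 1253620 to 4715450 reads in genes, and KLF counts were 28 to 1390 reads per gene and library. The shallowest library, 96 h DOX exp1_2, stood apart from the others. In it, 14.8% of reads fell on Gm42418 (3.39% to 6.61% elsewhere) and 7.10% on ribosomal protein genes (13.1% to 16.4% elsewhere). The 7 fibroblast markers summed to 1938 CPM there (reads relative to the library total, scaled by TMM), against 2.00 to 21.2 CPM in the other 9 libraries. Postn had 75 reads in 96 h DOX exp1_2 and 0 in each of the other 9 libraries, with or without DOX. Results that rest on 96 h DOX exp1_2 are given with and without it, and the part of fibroblast RNA in them was not tested. The 7 ES cell markers were detected in all groups and summed to 1268 to 1540 CPM in 96 h DOX, 666 to 765 CPM in 96 h no DOX and 1256 to 1363 CPM in 2iL. Of the 7, 1 rose and 2 fell with DOX against 2iL: Utf1 averaged 598 CPM in 96 h DOX, 404 CPM in 96 h no DOX and 123 CPM in 2iL, while Nanog averaged 32.8 CPM, 18.4 CPM and 220.0 CPM and Zfp42 81.9 CPM, 18.9 CPM and 186 CPM in the same order. Among all genes tested, 9.84% rose and 6.83% fell with DOX against 2iL. Markers of extraembryonic endoderm summed to 296 to 500.2 CPM in 96 h DOX, 22.0 to 31.4 CPM in 96 h no DOX and 19.9 to 28.1 CPM in 2iL, and 7 of the 8 rose with DOX against no DOX (5 without 96 h DOX exp1_2). In all 10 libraries, 2.16% of all genes tested rose with DOX against no DOX. Esrrb itself had 12.8, 27.0 and 14.7 CPM in 96 h DOX, 23.8, 13.6 and 32.0 CPM in 96 h no DOX, and 229 to 378 CPM in 2iL. Reads came from 3′ ends, and whether the construct carries the 3′ end of Esrrb is not given, so this level does not check the DOX label.

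After 96 h without 2iL and without DOX, 3 of the 9 KLF genes fell (Klf2, Klf4 and Klf5), 1 rose (Klf6) and 5 did not pass the test, which compared group means by edgeR's quasi-likelihood test at a threshold of 0.05 on p-values adjusted over all genes. Of all genes tested, 20.4% passed in this comparison (8.90% lower and 11.5% higher). In bulk RNA, fewer cells that express a gene and less RNA of it per cell cannot be told apart. The median log2 fold change was -0.21 over the 9 genes and 0.00 over all genes tested. With DOX against no DOX at 96 h, 2 of the 9 rose, Klf4 and Klf5, against a background of 3.10% of all genes (2.16% higher and 0.945% lower). Of the 9, 0 fell with DOX by edgeR, DESeq2 or limma, and 1 was lower at an unadjusted p below 0.05, Klf6. Klf7, a KLF gene outside these 9, did fall with DOX (-1.40) and is described below. The median log2 fold change here was 0.43 over the 9 genes and -0.02 over all genes. Without 96 h DOX exp1_2 it was 0.00 over the 9 genes (the value of Klf3) and -0.03 over all genes. With DOX against 2iL, 2 fell (Klf2 and Klf4) and 1 rose (Klf6), against 16.7% of all genes (6.83% lower and 9.84% higher), with medians of 0.27 and 0.02. Leaving out 96 h DOX exp1_2 turned these medians to -0.27 (the value of Klf5) and -0.0060. The 3 comparisons share libraries, so they are not independent of each other.

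**Figure D1:**
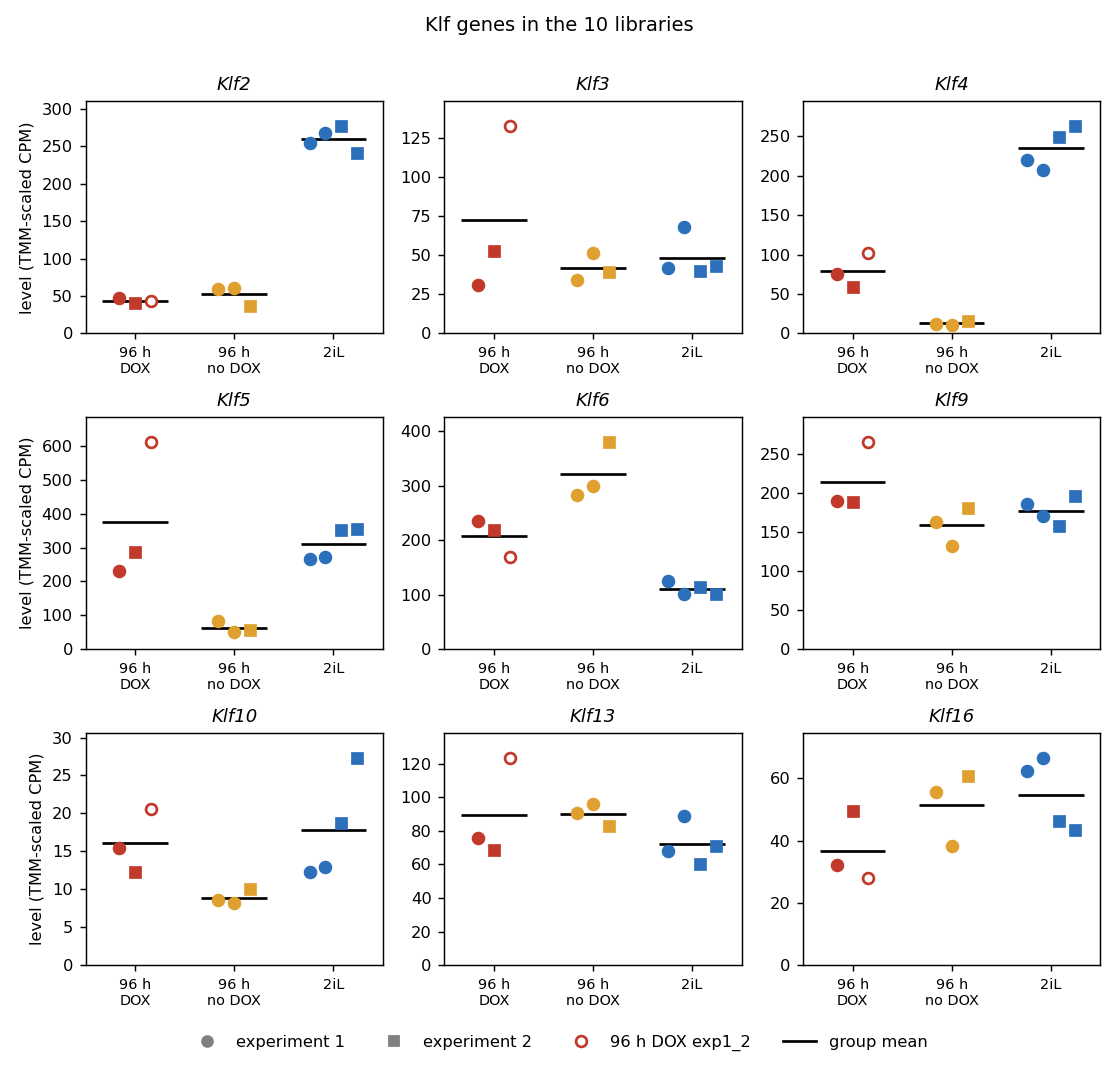
Level of each KLF gene (CPM scaled by TMM, each panel from 0) in 96 h DOX, 96 h no DOX and 2iL. Each point is 1 library (circles experiment 1, squares experiment 2, open circle 96 h DOX exp1_2) and bars show the group mean; Klf4 stood at 58.7 to 102 CPM in 96 h DOX, 10.8 to 15.6 CPM in 96 h no DOX and 208 to 263 CPM in 2iL.

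Klf4, a self-renewal factor and a component of the classical reprogramming mix, had 75.8, 58.7 and 102 CPM in 96 h DOX (exp1_1, exp2_1 and exp1_2). It had 12.6, 10.8 and 15.6 CPM in 96 h no DOX (exp1_1, exp1_2 and exp2_2), against 219, 208, 249.7 and 263 CPM in 2iL (exp1_1, exp1_2, exp2_1 and exp2_2). Means were 78.7 ± 21.6, 13.0 ± 2.42 and 235 ± 25.7 CPM in that order of groups (SD, n = 3, 3 and 4). The 3 groups did not overlap, and the libraries with DOX lay between the others. Without DOX, Klf4 fell 18.1-fold below 2iL (log2 fold change -4.18 with a standard error of 0.27, adjusted p = 2.48e-09, edgeR's quasi-likelihood test). This was the gene with the 6th smallest p of 11215 in that comparison. DOX against no DOX gave a 6.02-fold rise (2.59 ± 0.27, the standard error as for every log2 fold change here, adjusted p = 1.18e-05), and DOX against 2iL a 3.01-fold fall (-1.59 ± 0.24, adjusted p = 7.86e-05). The rise with DOX was 2.38 (adjusted p = 2.58e-06) without 96 h DOX exp1_2. The fall without DOX was -4.19 in experiment 1 and -4.04 in experiment 2, and that with DOX against 2iL -1.28 and -2.13. Within experiments the rise with DOX was 2.91 in experiment 1 and 1.91 in experiment 2, and these did not differ past the threshold (edgeR's quasi-likelihood test of the difference, adjusted p = 0.904).

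Klf5, another self-renewal factor, which also acts in epithelia and in the early blastocyst, had 229.8, 286 and 612 CPM in 96 h DOX. It had 83.1, 49.8 and 58.2 CPM in 96 h no DOX and 265, 272, 353 and 356 CPM in 2iL. All libraries without DOX at 96 h lay below all others, while those with DOX lay below (exp1_1), within (exp2_1) and above (exp1_2) the 2iL range. Means were 376 ± 206 CPM in 96 h DOX, 63.7 ± 17.3 CPM in 96 h no DOX and 311 ± 49.4 CPM in 2iL. Klf5 fell 4.89-fold in 96 h no DOX against 2iL (-2.29 ± 0.31, edgeR's quasi-likelihood test, adjusted p = 1.55e-05) and rose 5.88-fold with DOX against no DOX (2.56 ± 0.33, adjusted p = 7.07e-05). Without 96 h DOX exp1_2 the rise was 2.02 (adjusted p = 1.78e-05), and it was 2.66 in experiment 1 and 2.30 in experiment 2. The fall without DOX was -2.02 and -2.61 in these experiments. Between 96 h DOX and 2iL the difference was 0.27 ± 0.29 (95% interval -0.33 to 0.86, adjusted p = 0.586), and it was -0.27 without 96 h DOX exp1_2. That interval leaves room for a difference in either direction. Extraembryonic endoderm markers moved with DOX as well: 7 of the 8 tested rose against no DOX (5 without 96 h DOX exp1_2). The share of all genes that rose with DOX against no DOX was 2.16%. Sox7, which had too few reads to be tested, had 5, 4 and 4 reads in 96 h DOX and 0 reads in 96 h no DOX and in 2iL. The part of these markers in the levels of Klf4 and Klf5 was not tested.

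Klf2, known in ES cells as the family member tied to MEK inhibition, had 47.3, 40.9 and 42.7 CPM in 96 h DOX. It had 59.9, 61.03 and 36.1 CPM in 96 h no DOX, against 254, 268, 277 and 241 CPM in 2iL. Both 96 h groups overlapped each other and lay far below 2iL. Means were 43.6 ± 3.30 CPM in 96 h DOX, 52.4 ± 14.1 CPM in 96 h no DOX and 260.1 ± 15.9 CPM in 2iL. Klf2 fell 5.95-fold in 96 h DOX (-2.57 ± 0.24, adjusted p = 3.85e-07, edgeR's quasi-likelihood test) and 4.96-fold in 96 h no DOX (-2.31 ± 0.24, adjusted p = 4.80e-07), each against 2iL. DOX against no DOX gave -0.26 ± 0.24 (95% interval -0.77 to 0.24, adjusted p = 0.663). The fall in 96 h DOX was -2.53 in experiment 1 and -2.66 in experiment 2, and that in 96 h no DOX was -2.11 and -2.84.

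**Figure D2:**
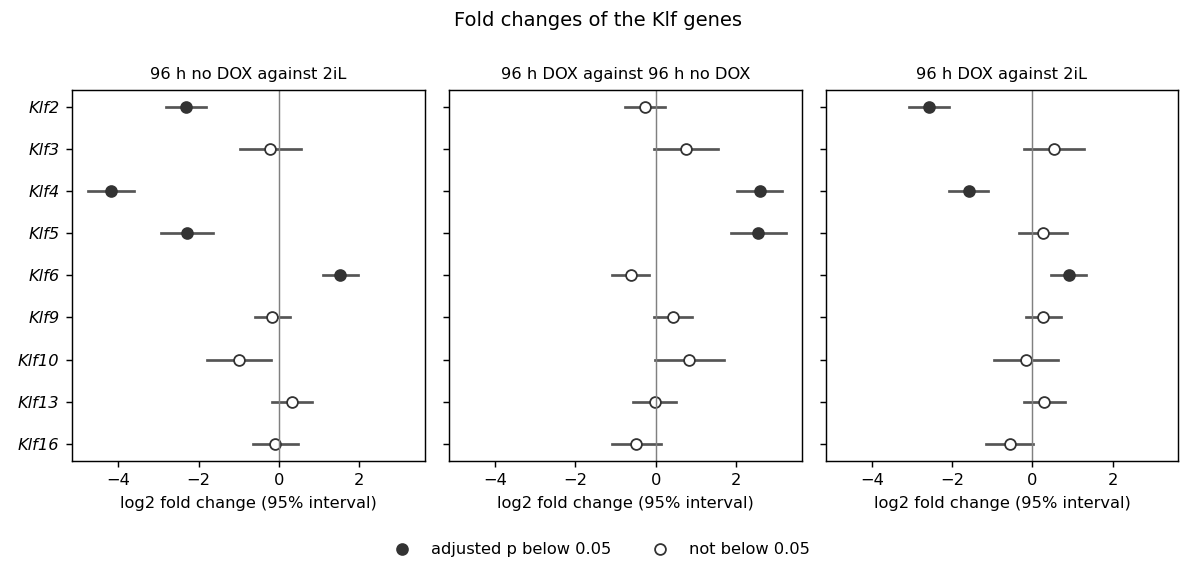
Log2 fold change of each KLF gene (horizontal axis, bars the 95% interval) in 96 h no DOX against 2iL, 96 h DOX against 96 h no DOX and 96 h DOX against 2iL. Filled points passed an adjusted p of 0.05; Klf4 at 2.59 and Klf5 at 2.56 are the filled points of the middle panel, where Klf2 is at -0.26.

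The balance among Klf2, Klf4 and Klf5 can be read within a library, without any scaling, as the ratio of their reads. These ratios were chosen after the values had been seen. They compare libraries and do not rank the transcripts of different genes. Klf4 reads over Klf2 reads came to 1.60, 1.44 and 2.38 in 96 h DOX, 0.211, 0.177 and 0.431 in 96 h no DOX, and 0.863, 0.775, 0.901 and 1.09 in 2iL. The 3 groups did not overlap. Klf5 over Klf2 came to 4.86, 7 and 14.3 in 96 h DOX, 1.39, 0.816 and 1.61 in 96 h no DOX, and 1.04, 1.02, 1.27 and 1.48 in 2iL, so that the libraries with DOX stood above all others. Klf5 over Klf4 separated differently, with 3.03, 4.87 and 6.02 in 96 h DOX and 6.58, 4.62 and 3.74 in 96 h no DOX overlapping, both above the 1.21 to 1.41 of 2iL. With so few libraries, a two-sided exact permutation test on log2 ratios cannot go below p = 0.1 for 3 against 3 libraries or 0.0571 for 3 against 4, and over the 9 comparisons the smallest adjusted p was 0.103.

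**Figure D3:**
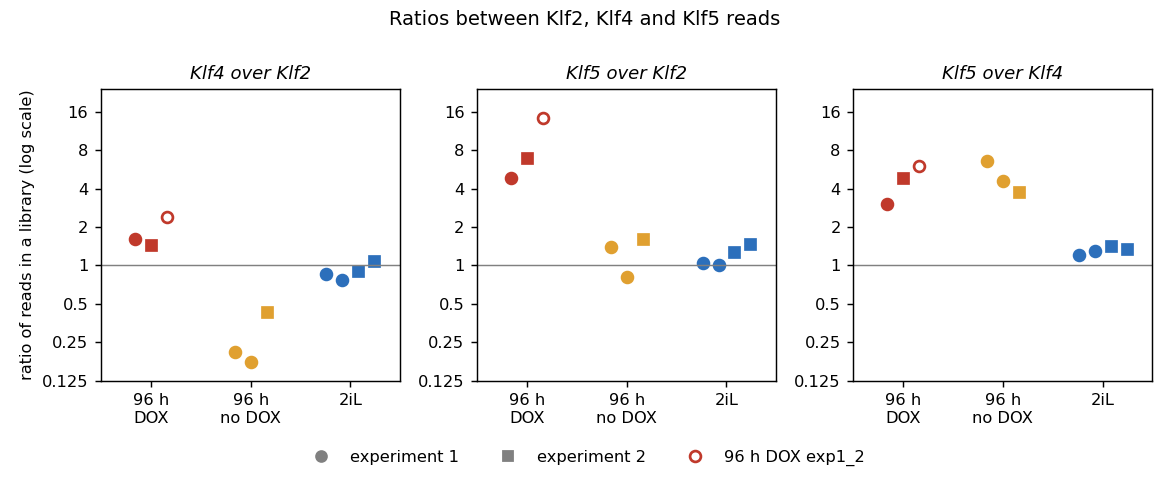
Ratio of reads of Klf4 over Klf2, Klf5 over Klf2 and Klf5 over Klf4 in each library (logarithmic axis), in 96 h DOX, 96 h no DOX and 2iL. Circles are experiment 1, squares experiment 2 and the open circle 96 h DOX exp1_2; Klf5 over Klf2 was 4.86 to 14.3 in 96 h DOX and 0.816 to 1.61 elsewhere.

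Klf6, a broadly expressed activator that responds early to injury and growth signals, went the other way. It had 236, 218 and 169 CPM in 96 h DOX, 282, 299.8 and 381 CPM in 96 h no DOX, and 126, 102, 114 and 102 CPM in 2iL. No 2 groups overlapped, and the order was the reverse of that of Klf4. Means were 208 ± 35.1 CPM in 96 h DOX, 321 ± 52.6 CPM in 96 h no DOX and 111 ± 11.6 CPM in 2iL. Klf6 rose 2.89-fold in 96 h no DOX against 2iL (1.53 ± 0.21, edgeR's quasi-likelihood test, adjusted p = 1.71e-05) and 1.87-fold in 96 h DOX against 2iL (0.91 ± 0.21, adjusted p = 0.00478). The difference between DOX and no DOX was -0.62 ± 0.23 and did not pass (adjusted p = 0.162), though every library with DOX was lower. Of all genes, 8.74% were lower in every library in that comparison. Within experiment 1 alone, DOX against 2iL gave 0.84, which no longer passed (adjusted p = 0.146), and experiment 2 gave 1.01. No DOX against 2iL gave 1.35 in experiment 1 and 1.81 in experiment 2.

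Klf3, the CtBP-binding repressor, had 31.1, 52.9 and 133 CPM in 96 h DOX, 34.4, 51.3 and 39.1 CPM in 96 h no DOX, and 42.0, 68.1, 39.9 and 42.9 CPM in 2iL. The groups overlapped, and the highest value came from 96 h DOX exp1_2. DOX against no DOX gave 0.76 ± 0.39 (edgeR's quasi-likelihood test, adjusted p = 0.371), and 0.00 when that library was left out.

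Among the Sin3-binding members, Klf10 (TIEG, a gene induced early by TGF-beta) was the least abundant in reads, with 15.4, 12.3 and 20.6 CPM in 96 h DOX, 8.52, 8.19 and 9.99 CPM in 96 h no DOX, and 12.3, 12.9, 18.7 and 27.4 CPM in 2iL. Every library without DOX at 96 h was lower than every other, but neither difference passed. No DOX against 2iL gave -0.997 ± 0.386 (edgeR's quasi-likelihood test, adjusted p = 0.0753) and DOX against no DOX 0.83 ± 0.41 (adjusted p = 0.353). Klf9, which is induced by glucocorticoid and thyroid hormone, had 189, 188 and 265 CPM in 96 h DOX, 163, 132 and 180.4 CPM in 96 h no DOX and 157 to 196 CPM in 2iL. All libraries with DOX were above those without at 96 h, by 0.43 ± 0.23 (adjusted p = 0.389), and this was 0.25 without 96 h DOX exp1_2. Klf13, known for its role in lymphocytes, had 75.8, 68.8 and 124 CPM in 96 h DOX, 83.1 to 96.0 CPM in 96 h no DOX and 60.2 to 89.2 CPM in 2iL, and no comparison of it passed (adjusted p of 0.415 to 0.980). Klf16 had 32.1, 49.5 and 28.0 CPM in 96 h DOX, 38.2 to 60.8 CPM in 96 h no DOX and 43.3 to 66.7 CPM in 2iL, with adjusted p of 0.181 to 0.871 and 95% intervals that together span -1.15 to 0.48. In none of these 4 genes, nor in Klf3, did any pair of groups differ past the threshold.

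Counting members by overlap alone, 4 genes were higher in every DOX library than in every library without DOX at 96 h (Klf4, Klf5, Klf9 and Klf10) and 1 was lower (Klf6), against 9.98% and 8.74% of all genes (18.7% in either direction). Against 2iL, 1 gene was higher and 4 were lower in every 96 h no DOX library, against 16.1% and 14.8% of all genes (30.9% in either direction). With DOX against 2iL 1 was higher and 2 were lower in every library, against 14.3% and 13.3% (27.6% in either direction). The summed level of the 9 genes was 933, 975 and 1495 CPM in 96 h DOX, 747 to 864 CPM in 96 h no DOX and 1235 to 1342 CPM in 2iL. The sum with DOX thus lay between the others in exp1_1 and exp2_1 and above both in exp1_2.

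**Figure D4:**
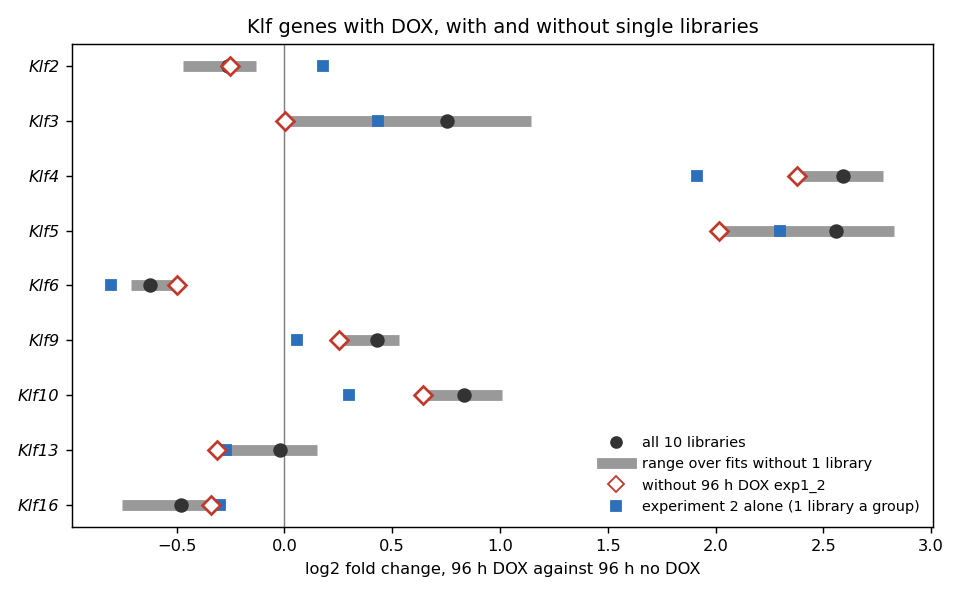
Log2 fold change of each KLF gene in 96 h DOX against 96 h no DOX, with all 10 libraries (dark points), over the fits with 1 library left out (grey bars, lowest to highest), without 96 h DOX exp1_2 (open diamonds) and in experiment 2 alone (squares, 1 library a group). Klf4 stayed between 2.38 and 2.78 and Klf5 between 2.02 and 2.83, while Klf3 ran from 0.00 to 1.15.

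The difference between experiments was tested for each gene and comparison in a fit with an interaction, and 0 of the 27 values passed in edgeR's quasi-likelihood test (smallest adjusted p 0.709; 1 of 27 had an unadjusted p below 0.05, Klf16 with DOX against 2iL). Klf16 in that comparison was -1.09 in experiment 1 and 0.14 in experiment 2.

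A further 17 genes of the KLF and Sp families, which share the zinc-finger region, were in the tables, and 11 had enough reads to be tested. Without DOX against 2iL, 1 rose and 2 fell, where 11.5% of all genes rose and 8.90% fell. Klf7, a factor of developing neurons, had 49.0, 51.6 and 47.9 CPM in 96 h DOX, 133, 96.6 and 164 CPM in 96 h no DOX, and 23.0, 25.4, 31.0 and 26.2 CPM in 2iL. Its groups did not overlap, in the same order as those of Klf6. It rose in 96 h no DOX against 2iL (2.31 ± 0.24, edgeR's quasi-likelihood test, adjusted p = 5.45e-07), fell with DOX against no DOX (-1.40 ± 0.25, adjusted p = 0.00285) and rose in 96 h DOX against 2iL (0.91 ± 0.24, adjusted p = 0.0124). Both comparisons with DOX missed the threshold in experiment 1 alone (adjusted p of 0.146 and 0.102). Klf8, a CtBP-binding repressor like Klf3, had 3.38 to 7.37 CPM in 96 h DOX, 2.06 to 8.84 CPM in 96 h no DOX and 16.3 to 28.6 CPM in 2iL, and fell in both 96 h groups (-2.16 ± 0.49, adjusted p = 0.00377 with DOX, and -1.92 ± 0.46, adjusted p = 0.00464 without). With DOX it missed the threshold in experiment 1 alone (adjusted p = 0.0640). Sp5, a target of beta-catenin signalling, fell as well (-4.18 ± 0.74, adjusted p = 0.00154 with DOX, and -4.42 ± 0.73, adjusted p = 0.000681 without). Its 2iL level differed by experiment, with 31.6 and 40.1 CPM in experiment 1 and 181 and 197 CPM in experiment 2, and 0.737 to 9.83 CPM in all 96 h libraries. Klf7 was the single gene of the 11 to pass with DOX against no DOX, where 3.10% of all genes passed. Sp1, the ubiquitous GC-box factor, had the highest mean level of the 17 in reads (185 ± 38.3 CPM in 96 h DOX, n = 3, 166 ± 9.53 CPM in 96 h no DOX, n = 3, and 159 ± 13.8 CPM in 2iL, n = 4, SD) and did not pass in any comparison. The untested Klf1, Klf14, Klf17, Sp7, Sp8 and Sp9 had 0 to 26 reads per library.

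**Figure D5:**
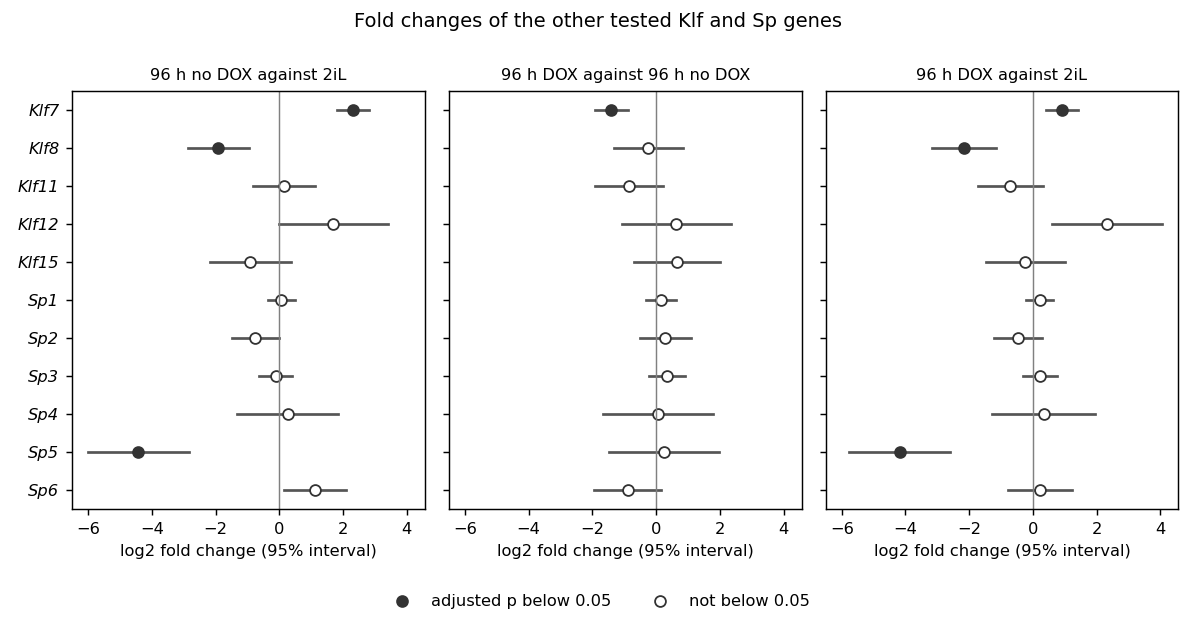
Log2 fold change of the 11 other tested KLF and Sp genes (horizontal axis, bars the 95% interval) in 96 h no DOX against 2iL, 96 h DOX against 96 h no DOX and 96 h DOX against 2iL. Filled points passed an adjusted p of 0.05; in the middle panel the filled point is Klf7 at -1.40.

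The LIF and STAT3 pathway, which acts upstream of Klf4, was followed with 10 genes. Against 2iL, 8 of the 10 fell without DOX (median log2 fold change -1.97) and 5 fell with DOX (median -1.10). Among all genes, 8.90% and 6.83% fell in these comparisons. Of the 10, 2 rose with DOX against no DOX (median 0.99), where 2.16% of all genes rose. Lifr, the LIF receptor, had 34.2, 28.6 and 38.3 CPM in 96 h DOX, 10.9, 4.53 and 10.6 CPM in 96 h no DOX and 28.5 to 43.3 CPM in 2iL, so that its libraries with DOX lay in the 2iL range. It rose with DOX (1.97 ± 0.36, edgeR's quasi-likelihood test, adjusted p = 0.00333), as did Il6st, the gp130 chain of that receptor (1.67 ± 0.36, adjusted p = 0.0112). The adjusted p of Il6st was 0.0501 without 96 h no DOX exp1_2 and 0.0543 in experiment 1 alone. Pim1, a kinase gene induced by STAT3, differed by 1.30 ± 0.39 between DOX and no DOX and missed the threshold (adjusted p = 0.0819). Stat3, the transducer, fell in 96 h no DOX against 2iL (-2.41 ± 0.32, adjusted p = 1.05e-05), and its difference between DOX and no DOX was 0.88 ± 0.32 (adjusted p = 0.168). Bcl3, a STAT3-induced gene, had 7.60, 12.3 and 11.8 CPM in 96 h DOX, 4.70, 3.45 and 9.69 CPM in 96 h no DOX and 57.1 to 65.5 CPM in 2iL. It fell against 2iL by 2.54 ± 0.35 with DOX (adjusted p = 4.19e-05) and by 3.36 ± 0.37 without (adjusted p = 1.05e-06).

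Of 13 other genes of the naive network, 11 fell without DOX (median -3.59) and 10 fell with DOX (median -2.49), each against 2iL, and 5 rose with DOX against no DOX (median 0.78). The shares of all genes were 8.90%, 6.83% and 2.16% in that order. Tbx3, a T-box factor that sustains self-renewal, had 84.8, 91.9 and 113 CPM in 96 h DOX, 15.0, 11.2 and 12.9 CPM in 96 h no DOX and 192 to 245 CPM in 2iL, in the same order as Klf4. It rose with DOX against no DOX (2.89 ± 0.25, edgeR's quasi-likelihood test, adjusted p = 9.55e-07). Nr0b1 (Dax1), a nuclear receptor, had 19.2, 28.3 and 55.3 CPM in 96 h DOX, 2.35, 1.08 and 0.588 CPM in 96 h no DOX and 12.3 to 27.4 CPM in 2iL. It rose with DOX by 4.62 ± 0.55 (adjusted p = 3.66e-05), and its DOX libraries lay within or above the 2iL range. Tfcp2l1 rose by 1.70 ± 0.31 (adjusted p = 0.00333 by the same test) and averaged 97.6 CPM in 96 h DOX against 918 CPM in 2iL. Esrrb (-0.32), Dppa3 (-0.99), Prdm14 (-1.02) and Mycn (-0.17) were lower with DOX against no DOX and did not pass. The 13 thus include Esrrb, whose level does not check the DOX label.

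Genes were also ranked by the correlation of their level with that of Klf2, Klf4 or Klf5 across the 10 libraries. Levels were taken as log2(CPM + 1), over 8524 genes with a mean of at least 10 CPM in a group. Genes with clone, numbered, pseudogene or ID-only names were left out of the 8524. The 10 points fall into the 3 groups, so r mainly says that genes share the order of group levels. For Klf4 the nearest were Trap1a (r = 0.99), Tbx3 (0.99) and Zfp42 (0.98), a zinc-finger marker of naive ES cells. For Klf5 they were Nr0b1 (0.98), Bmp4 (0.97), a BMP ligand, and Twf1 (0.97), an actin-binding protein. For Klf2 they were Fbrsl1 (0.99), Mylpf (0.98), a myosin light chain, and Spic (0.98), an Ets factor. Mylpf averaged 17.4 ± 7.58 CPM in 96 h DOX, 15.0 ± 4.30 CPM in 96 h no DOX and 184 ± 38.6 CPM in 2iL (SD, n = 3, 3 and 4).

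MEK and ERK feedback genes, which report on the kinase that 2iL blocks, were 8 in number. Both 96 h groups had 2 of them higher than 2iL, Dusp4 and Dusp6, which encode phosphatases of ERK. Against 2iL, 9.84% of all genes rose with DOX and 11.5% without. Spry2, Spry4, Spred1, Etv4, Etv5 and Egr1 did not pass against 2iL with or without DOX. Etv5, for example, averaged 564 CPM in 96 h DOX, 753 CPM in 96 h no DOX and 721 CPM in 2iL. Spry2 averaged 83.7 CPM, 79.3 CPM and 75.3 CPM in that order. Dusp4 had 44.2, 38.7 and 69.2 CPM in 96 h DOX, 81.3, 61.7 and 60.2 CPM in 96 h no DOX and 1.75 to 7.76 CPM in 2iL. Like Klf2, the groups with and without DOX overlapped and were both far from 2iL. Dusp4 rose by 3.34 ± 0.38 with DOX (adjusted p = 3.28e-06, edgeR's quasi-likelihood test) and by 3.77 ± 0.37 without (adjusted p = 3.76e-07), and Dusp6 by 1.52 ± 0.25 (adjusted p = 0.000235) and 1.29 ± 0.25 (adjusted p = 0.000800). Between DOX and no DOX, 0 of the 8 passed by edgeR, DESeq2 or limma, and 0 had an unadjusted p below 0.05. The share of all genes that passed there by edgeR was 3.10%, so 0 of 8 is near it.

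Of 9 corepressor genes, which serve Klf3 and the Sin3-binding members, Ctbp2 rose without DOX against 2iL (1.06 ± 0.22, adjusted p = 0.00165, edgeR's quasi-likelihood test). The same gene rose with DOX against 2iL (0.70 ± 0.23, adjusted p = 0.0367) and Sin3b fell (-0.94 ± 0.23, adjusted p = 0.00651). Sin3b had 198, 168 and 123 CPM in 96 h DOX, 219, 170.4 and 263 CPM in 96 h no DOX and 292 to 354 CPM in 2iL. The Ctbp2 result with DOX passed in 4 of the 10 fits that left out 1 library, and no corepressor passed in experiment 1 alone. The difference between DOX and no DOX passed for 0 of the 9 by edgeR, DESeq2 or limma and 0 had an unadjusted p below 0.05. Since 3.10% of all genes passed there by edgeR, 0 in a list of this size is near that share. Of 8 ubiquitin ligase genes, whose products include some that mark KLF proteins for degradation, Fbxo32 rose without DOX against 2iL (9.98 ± 4.66 CPM against 0.863 ± 1.06 CPM, SD, n = 3 and 4). Its log2 fold change was 3.45 ± 0.74 (adjusted p = 0.00175) and 4.77 without 2iL exp2_1, the library that held most of its reads in 2iL. With DOX against 2iL it rose by 2.74 ± 0.76 (adjusted p = 0.0159), which did not pass without 96 h DOX exp1_2 (2.27, adjusted p = 0.0670). Vhl fell without DOX against 2iL (-1.24 ± 0.38, adjusted p = 0.0229), and this passed in 7 of the 10 fits that left out 1 library.

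Of 8 genes that respond to TGF-beta family signals, as Klf10 does, 4 fell and 2 rose without DOX against 2iL, and 2 rose with DOX against no DOX. For all genes these shares were 8.90%, 11.5% and 2.16%. Those that rose with DOX were Smad7 and Lefty2, both feedback inhibitors. Smad7 had 24.7, 22.7 and 42.7 CPM in 96 h DOX, 1.47, 2.80 and 2.06 CPM in 96 h no DOX and 32.0 to 52.3 CPM in 2iL. It rose with DOX by 3.75 ± 0.41 (edgeR's quasi-likelihood test, adjusted p = 2.22e-05). Lefty2 rose by 3.02 ± 0.31 (adjusted p = 9.13e-06), with 57.5, 95.9 and 61.9 CPM in 96 h DOX, 9.98, 7.12 and 9.69 CPM in 96 h no DOX and 353 to 636 CPM in 2iL.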

How the data were processed

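RNA in 10 libraries was measured by 3′ digital gene expression sequencing of polyA RNA. Per the submitters' processing notes, bcl2fastq, STAR 2.6.0a and HTSeq were used with the mm10 build; the strand setting and the annotation release are not stated in any source used here. The authors deposited raw read counts per gene for each library and 1 CPM table. The deposited CPM values gave whole reads within 0.01 for 310530 of 310530 entries, 100.0% of them, all equal to the counts. A count test on those reads, added after the data had been seen, therefore had to call the same 2289, 348 and 1870 genes. The 5 HTSeq summary lines (62.7% to 68.4% of reads) were left out. Symbols matched 30934 of 31053 IDs.

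Counts were fitted with edgeR 4.0.16 in R 4.3.3: filterByExpr by group (minimum count 10), TMM scaling, robust quasi-likelihood test over all 10 libraries, contrasts of group means, and Benjamini-Hochberg adjustment over 11215 genes at 0.05. Levels are CPM scaled by TMM. The standard error (SE) of a log2 fold change was taken from its size and the F statistic. The test was tested on simulated data. Alternatives were DESeq2 1.42.0, limma 3.58.1 on log2(CPM + 1) of the deposited table, RLE scaling or library totals, other filters, the 2 compared groups alone, replicate blocks, experiment 1 alone and each library left out.

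The KLF genes and gene lists were chosen with earlier results of these data known. The text names all 9 KLF genes and the 3 genes nearest to Klf2, Klf4 and Klf5. Other KLF and Sp genes are named where they passed in any comparison, had the highest level or were not tested. From each further list, at most 4 genes by smallest p were to be named. More are named from the LIF, MEK and marker lists, among them genes that did not pass or were not tested. Nothing says that libraries came from separate cultures, so p-values measure the spread between these libraries, which may be technical. Reads carry no stated molecular identifiers.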

Additional observations from a re-analysis of the deposited data

Results flagged for a closer look

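Klf3 in 2iL was 68.1 CPM in exp1_2, against 39.9 to 42.9 CPM in the other 3 libraries of that group, and its gap to the nearest of them was 0.895 of the group's range, above Dixon's 95% critical value for 4 samples. The levels of the 9 KLF genes in 2iL were examined in this way, and chance alone marks about 1 in 20 such groups. Klf3 passed no comparison with or without this library.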

How the results depend on the processing

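The KLF calls held in every one of the 21 alternatives with a test, except Klf6 in 96 h DOX against 2iL, which held in 20 and lost its call within experiment 1 alone (0.84, edgeR's quasi-likelihood test, adjusted p = 0.146). Its adjusted p ranged from 0.000177 to 0.146 over the alternatives. Klf4 with DOX against no DOX ran from 2.38 to 2.94 over them and Klf5 from 2.02 to 2.83. The 21 include the reads recovered from the deposited CPM values. Those reads equal the counts, so that fit could not differ from the main fit. Counts of all genes called moved by over 1.5 times, against 2289, 348 and 1870, as follows. With DOX against no DOX there were 564 without a filter, 563 by DESeq2, 212 with the 2 groups alone and 108 in experiment 1 alone. Leaving out 1 library gave 161 (96 h no DOX exp1_1) to 358, with 181 without 96 h no DOX exp2_2. Experiment 1 alone gave 1226 for no DOX against 2iL and 926 for DOX against 2iL. Fits of experiment 1 alone or without a library hold fewer libraries, and for the other settings the cause was not tested.

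With both the experiment and the number of a library as a replicate block, 159 genes passed with DOX against no DOX, and with the experiment alone as a replicate block 347; neither changed a KLF call. Deviations of same-experiment, same-number libraries correlated at -0.149 to 0.364 over 8 pairs, so the numbers were not taken to pair libraries. The difference between experiments was not refitted under alternatives.

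The sign turned in small differences that did not pass. Klf16 without DOX against 2iL ran from -0.224 to 0.0888 over the fits without 1 library and was 0.0030 without 2iL exp1_2. Klf13 with DOX against no DOX was 0.0814 with library totals, 0.0411 with limma, 0.0361 with the experiment and number as a block, 0.11 in experiment 1 alone and -0.31 to 0.15 without 1 library. Klf10 with DOX against 2iL was 0.0417 with limma, 0.0388 with that block, 0.51 in experiment 1 alone and -0.36 to 0.14 without 1 library. Without 96 h DOX exp1_2, Klf3 and Klf5 with DOX against 2iL were -0.21 and -0.27, in ranges of -0.21 to 0.94 and -0.27 to 0.54. Library totals moved the median of all genes with DOX against 2iL to 0.17 and the share of higher calls to 70.9%, against 59.0% with TMM; no KLF gene changed sign there. Klf10 rested on 28 to 74 reads a library, which limits its precision.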

Other observations

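The other lists gave the following values. Of 4 coactivator genes, Kat2b, a histone acetyltransferase, fell without DOX against 2iL (-1.08 ± 0.32, edgeR's quasi-likelihood test, adjusted p = 0.0186), which passed in 7 of the 10 fits that left out 1 library. Between DOX and no DOX, 0 of the 4 passed by edgeR, DESeq2 or limma, and 1 was higher at an unadjusted p below 0.05. By edgeR, 3.10% of all genes passed there, so 0 of 4 is near that share. Kat2b had 22.1, 24.9 and 39.0 CPM in 96 h DOX, 15.9, 12.7 and 14.1 CPM in 96 h no DOX and 21.9 to 38.7 CPM in 2iL.

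Of 9 immediate early genes, the class to which Klf6 is often assigned, Jun rose without DOX against 2iL (2.62 ± 0.50, edgeR's quasi-likelihood test, adjusted p = 0.00069) and with DOX against 2iL (1.99 ± 0.52, adjusted p = 0.0111). The second did not pass without 96 h DOX exp1_2 (1.35, adjusted p = 0.0865). The list did not move as 1 class. Without DOX against 2iL, 1 of the 9 rose and 0 fell, where 11.5% of all genes rose and 8.90% fell. With DOX against 2iL, 2 rose (Jun and Fosb) and 1 fell, Ier2 (-0.99 ± 0.33, adjusted p = 0.0453 by the same test). Among all genes, 9.84% rose and 6.83% fell in that comparison. Fosb had 25, 0 and 7 reads in 96 h DOX and 0 reads in every 2iL library. By DESeq2, as by limma, 1 of the 9 rose with DOX against 2iL. Ier2 was also lower without DOX but did not pass (-0.77 ± 0.33, adjusted p = 0.107). When 96 h DOX exp1_2 was left out, 0 rose and 0 fell with DOX against 2iL. Between DOX and no DOX, 0 of the 9 passed by edgeR, DESeq2 or limma, and 1 was lower at an unadjusted p below 0.05. That is near the 3.10% of all genes that passed there by edgeR.

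Marker lists of other cell types summed as follows. Formative epiblast markers came to 1726 to 2637 CPM in 96 h DOX, 2532 to 2681 CPM in 96 h no DOX and 210.3 to 278 CPM in 2iL. Neural markers came to 312 to 771 CPM in 96 h DOX, 881 to 1612 CPM in 96 h no DOX and 214 to 773 CPM in 2iL. Trophoblast markers came to 50.8 to 87.3 CPM, 77.9 to 108 CPM and 106 to 132 CPM in the same order. Of the trophoblast markers, Tfap2c averaged 22.8 CPM in 96 h DOX, 20.6 CPM in 96 h no DOX and 78.4 CPM in 2iL, Krt18 averaged 25.9 CPM, 52.9 CPM and 10.3 CPM in that order, and Elf5 had 0 reads in every library. Endothelial markers came to 18.7 to 28.7 CPM, 12.6 to 14.7 CPM and 38.3 to 75.4 CPM. In 2iL, Pecam1 made up most of the endothelial sum (32.3 to 72.1 CPM), with Cdh5 at 0 to 0.666 CPM and Emcn at 0 reads. Tubb3 made up most of the neural sum in 2iL (169.5 to 714 CPM), with Sox1 and Pax6 at 1.54 to 4.09 CPM. Macrophage markers summed to 62.6 CPM and hepatocyte markers to 26.5 CPM in 96 h DOX exp1_2, against at most 31.3 CPM and 1.29 CPM in the other libraries.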
